A study of Mus musculus with 19 samples.

Results

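Angiotensinogen (Agt) was, among 6 chosen renin-angiotensin and natriuretic genes, the one whose group means on the log2 scale lay farthest apart in epididymal white adipose tissue (eWAT). Its expression was highest on both low-fat diets, was lowest in NormMg-HFD mice and was higher again in LowMg-HFD mice. The genes described are the 6 rows of the expression table that carry the symbols Agt, Ren1, Ace, Agtr1a, Agtr2 and Npr1, out of 24237 genes in all. They were chosen by name, and with the knowledge that Agt has one of the highest positive differences between LowMg-HFD and NormMg-HFD mice, so their values in that comparison are given as a description, with no test.

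The tissue came from male C57BL6/J mice aged 9 to 10 weeks at the start, kept for 17 weeks on 1 of 4 diets, with 1 library per mouse. The NormMg diets held 0.21% (wt/wt) MgO and the LowMg diets 0.03%, and palm oil gave 10% of the energy of the low-fat diet (LFD) and 60% of that of the high-fat diet (HFD). The groups were NormMg-LFD (n = 4, replicates 2 to 5), LowMg-LFD (n = 5), NormMg-HFD (n = 5) and LowMg-HFD (n = 5). The comparisons ask whether Mg2+ intake changes expression on each fat level, and whether fat changes it at each Mg2+ level.

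Angiotensinogen is a secreted precursor that liver and fat cells make. Renin cleaves it to angiotensin I, and angiotensin-converting enzyme (ACE) trims that to angiotensin II, which acts through the AT1 receptor to narrow vessels and retain sodium and through the AT2 receptor with largely opposite effects. Natriuretic peptides of the heart work against this system: their receptor NPR1 makes cGMP, and the receptor NPR3 clears the peptides.

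The table gives FPKM, in which fragments are divided by transcript length and library size, so that levels can be set side by side between genes. Between 12986441 and 13027028 reads were sequenced per mouse, and the table holds no read counts per gene. Differences are on the scale of log2(FPKM + 1), where a difference of 1 is a doubling for a well-expressed gene, and come from limma fitted to all 19 mice and to the 8336 genes that passed a filter of FPKM 8. The labelled tissue was borne out by its markers: the mean of 10 adipocyte genes such as Adipoq and Plin1 lay between 8.90 and 9.81 on that log2 scale in every mouse.

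In 3 libraries, genes of a neighbouring organ were higher than in any other mouse, and testis genes also stood high in further libraries. In NormMg-LFD replicate 3 the mean of 9 exocrine pancreas genes was 7.19 on the log2 scale, against 0.97 or less in every other mouse, so that all LowMg-HFD mice lay under that value. In LowMg-LFD replicate 4 the mean of 5 epididymis genes was 3.46, against 0.51 or less elsewhere. In LowMg-HFD replicate 4 the mean of 6 testis germ cell genes was 8.85. Testis genes were next highest in NormMg-LFD replicates 5 (6.62) and 4 (5.47) and in LowMg-LFD replicate 1 (4.77), and lay at 3.17 or less in the other 15 mice. The study's methods left a LowMg-HFD mouse out for pancreatic tissue, which the labels do not name, so all 5 were kept here. Values without these 3 libraries are given for Ren1, Ace, some correlations and the pathway calls that were lost without them.

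Of the 6 genes, 5 have a start-site window in RefSeq (GRCm38.p6), 250 bases before to 50 bases after the start, and Ace has 1 window at each of 2 starts. The windows of Agt and Ace are printed because the results turn on these genes. Agt is shown for its changes with diet, and Ace because its downstream start lies inside the gene and is the one from which the shorter, germ cell form is made, so that reads from testis tissue count towards the same gene. Capitals mark matches to TATAAA or CCAAT on either strand; AGAACA and TTNCGNAA were searched as well and are in none of the 6 windows.

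Agt, chr8:124569657-124569956, minus strand: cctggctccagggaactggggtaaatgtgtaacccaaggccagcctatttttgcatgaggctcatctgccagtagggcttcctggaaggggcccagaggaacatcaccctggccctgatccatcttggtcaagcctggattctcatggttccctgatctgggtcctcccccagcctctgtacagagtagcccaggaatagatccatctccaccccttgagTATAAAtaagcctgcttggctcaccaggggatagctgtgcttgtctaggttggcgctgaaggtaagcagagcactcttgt
Ace, upstream start, chr11:105967698-105967997, plus strand: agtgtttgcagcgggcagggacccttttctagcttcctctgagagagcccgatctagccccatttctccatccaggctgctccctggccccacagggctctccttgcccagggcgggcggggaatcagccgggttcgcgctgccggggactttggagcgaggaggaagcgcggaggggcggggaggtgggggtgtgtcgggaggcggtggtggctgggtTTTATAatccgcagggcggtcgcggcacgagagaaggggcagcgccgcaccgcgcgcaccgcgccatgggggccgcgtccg
Ace, downstream start, chr11:105974939-105975238, plus strand: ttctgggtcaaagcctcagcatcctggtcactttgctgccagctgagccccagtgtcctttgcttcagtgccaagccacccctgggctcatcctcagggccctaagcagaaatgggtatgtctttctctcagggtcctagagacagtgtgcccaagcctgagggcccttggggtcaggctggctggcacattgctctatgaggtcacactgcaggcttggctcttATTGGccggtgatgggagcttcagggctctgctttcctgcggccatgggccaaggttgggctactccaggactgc

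TATAAA begins 30 bases before the start of Agt on the gene's own strand and 29 bases before that of Ren1, whose window (chromosome 1, 133350424 to 133350723) is not printed. At the upstream start of Ace the same letters lie on the opposite strand. At the downstream start there is no TATAAA, and CCAAT lies on the opposite strand, as it does in the windows of Npr1 and Agtr2. TATAAA was in 13.6%, CCAAT in 37.4%, AGAACA in 19% and TTNCGNAA in 2.47% of the 32851 windows of all genes. A match describes the letters only. In the GENCODE M21 annotation of the same build, transcript Ace-201 runs from 105967945 to 105989964 on chromosome 11, and Ace-202, which starts within it, from 105975208 to 105989253.

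Agt (chromosome 8, 124556534 to 124569706) was expressed in every mouse. In NormMg-LFD replicates 2 to 5 its FPKM was 84.41, 144.94, 183.66 and 75.2. In LowMg-LFD replicates 1 to 5 it was 78.13, 172.93, 86.7, 197.12 and 121.6. Both low-fat groups were thus spread over the same wide range.

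In NormMg-HFD replicates 1 to 5 the Agt FPKM was 15.06, 18.34, 12.82, 19.87 and 28.93, and every one of these mice lay below every mouse of the other groups. In LowMg-HFD replicates 1 to 5 it was 74.32, 37.92, 116.94, 104.27 and 83.76. The latter fell between the NormMg-HFD mice and the upper part of the low-fat range.

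**Figure D1:**
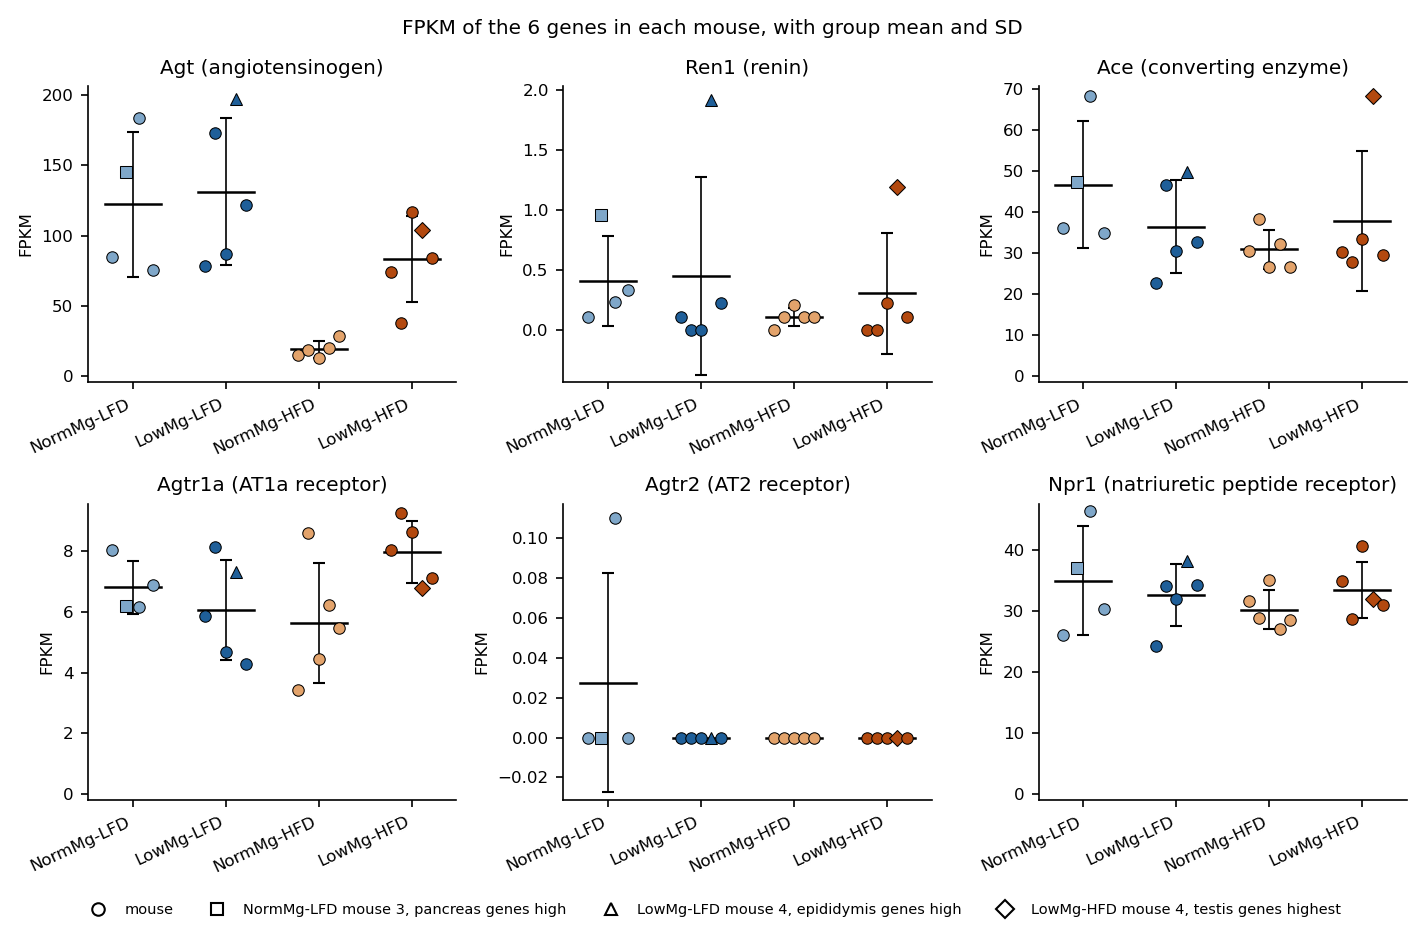
FPKM of each of the 6 genes (vertical axes, each with its own scale) in each mouse of the 4 diet groups; points are mice, horizontal lines are group means, bars are SD, and other symbols mark the 3 libraries with high pancreas, epididymis or testis genes. The 5 NormMg-HFD mice sit lowest for Agt, at 12.82 to 28.93, and the highest Ren1 values belong to the 3 marked libraries.

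The group means of Agt were 131.3 ± 52.4 (SD, n = 5) in LowMg-LFD, 122.1 ± 51.4 (n = 4) in NormMg-LFD, 83.4 ± 30.5 (n = 5) in LowMg-HFD and 19 ± 6.195 (n = 5) in NormMg-HFD mice. In that order only the last step, from LowMg-HFD to NormMg-HFD, was larger than the SD of both groups and free of overlap. The LowMg-HFD mean was 4.39 times the NormMg-HFD mean, a log2 difference of 2.03 (SE 0.32), which is the third highest of the 8336 genes tested. The groups did not overlap, as for 3.2% of tested genes in this direction, and this is the comparison for which Agt was chosen.

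On the normal Mg2+ level, Agt was 6.42-fold lower on the high-fat than on the low-fat diet, with a log2 difference of -2.58 (SE 0.34), and the groups did not overlap, as for 10.6% of tested genes in this direction. At low Mg2+ the difference was -0.65 (SE 0.32), with a 95% confidence interval of -1.32 to 0.02 and overlapping groups. Both differences share the high-fat mice through which Agt was chosen and were not tested.

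Low Mg2+ on the low-fat diet, which the choice of Agt did not use, gave no detectable difference in Agt. The log2 difference was 0.11 (SE 0.34, 95% confidence interval -0.60 to 0.82), with a limma adjusted p of 0.973 and an exact permutation p of 0.81. No gene passed the adjusted threshold in this comparison (0% called by limma), while 547 genes, or 6.56%, had an unadjusted p under 0.05.

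The level of Agt relative to Ace and Npr1 changed rank with diet, while Agt exceeded Agtr1a in every mouse. In NormMg-HFD mice Agt exceeded Ace in 1 of 5 mice and Npr1 in 1 of 5, with ratios to Ace of 0.477 to 1.08. In each of the other groups it exceeded both genes in every mouse, with ratios to Ace of 1.37 to 3.95 over these groups.

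Agt is an adipocyte gene, and the mean of the 10 adipocyte markers was itself lowest in NormMg-HFD mice, where 7 markers were lower, 1 was higher and 2 did not pass the limma threshold against NormMg-LFD mice. Against NormMg-HFD mice, 6 were higher in LowMg-HFD mice and 4 did not pass. The mean of the list on the log2 scale was 9.60 ± 0.21 in NormMg-LFD, 9.71 ± 0.04 in LowMg-LFD, 9.17 ± 0.21 in NormMg-HFD and 9.69 ± 0.14 in LowMg-HFD mice. Fewer adipocytes and less RNA per adipocyte cannot be told apart in bulk tissue. The list also holds Lep, Lipe and Pnpla2, and the study reported more Lipe and Pnpla2 mRNA in eWAT of LowMg-HFD than of NormMg-HFD mice. Values relative to the list therefore also subtract diet changes of the markers themselves, here and below.

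Set against these markers in each mouse, Agt stood at -2.75 ± 0.80 in NormMg-LFD and -2.75 ± 0.57 in LowMg-LFD mice on the log2 scale. It stood at -4.90 ± 0.23 in NormMg-HFD mice, between -5.11 and -4.58, and at -3.38 ± 0.64 in LowMg-HFD mice, between -4.38 and -2.74. The difference between the high-fat groups, the one by which Agt was chosen, was 1.52 after this centring. There the centring lowered the median of all tested genes by 0.51, and between fat levels on normal Mg2+ it raised that median by 0.43. The 8 macrophage genes moved the other way, from a mean of 7.20 ± 0.30 in NormMg-HFD to 5.99 ± 0.56 in LowMg-HFD mice, against 5.07 ± 0.15 and 5.12 ± 0.40 on the low-fat diets. A list of 5 mesothelial genes was lowest in NormMg-HFD mice, as Agt was, with a mean of 1.97 ± 0.32 there and 2.64 ± 0.41 in LowMg-HFD, 3.26 ± 0.63 in NormMg-LFD and 2.67 ± 0.48 in LowMg-LFD mice. Their summed FPKM was 9.43 to 21.49 in NormMg-HFD and 17.27 to 43.14 in LowMg-HFD mice. The part of either list in the Agt values was not tested.

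**Figure D2:**
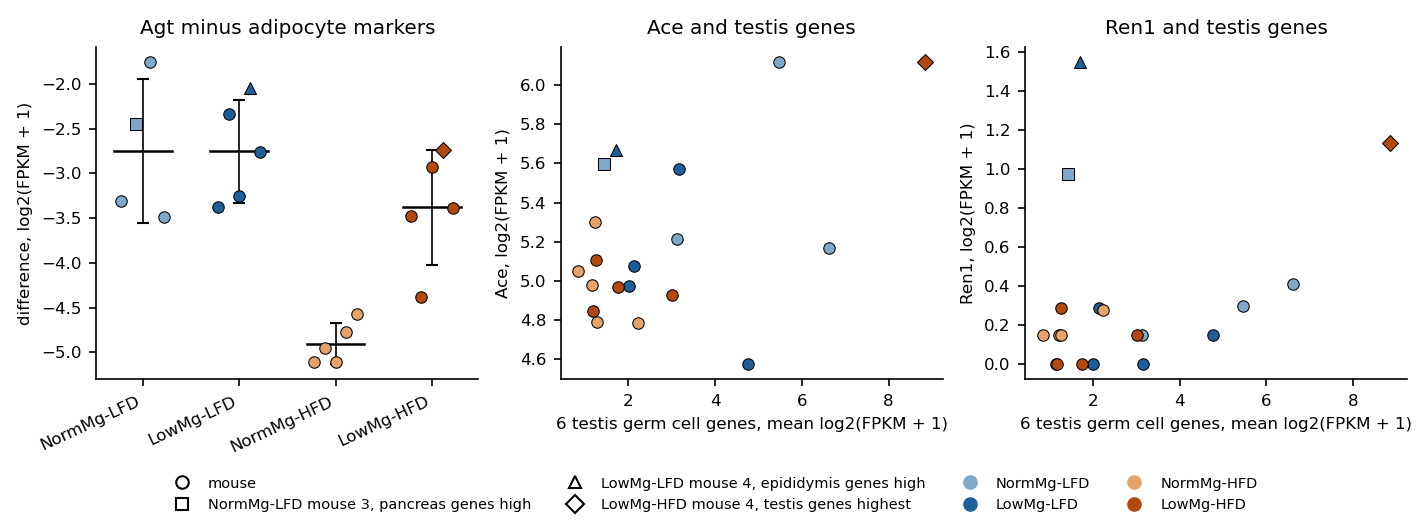
Left, log2(FPKM + 1) of Agt minus the mean of 10 adipocyte genes, by diet group, with mean and SD; middle and right, Ace and Ren1 against the mean of 6 testis germ cell genes, each point a mouse and each axis in log2(FPKM + 1). Agt stays lowest in the NormMg-HFD mice, at -5.11 to -4.58, LowMg-HFD replicate 4 lies at 8.85 on the testis axis, and the 3 marked libraries lie above the rest for Ren1.

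The genes whose log2 values followed Agt most closely over the 19 mice were Nrbp2 (Pearson r 0.97), Mettl7a1 (0.95), Echdc2 (0.95), Pde1a (0.94) and Cfd (0.94). Cfd encodes adipsin, a complement factor secreted by adipocytes, and its FPKM was 5724 ± 1796 in NormMg-LFD, 6732 ± 2122 in LowMg-LFD, 412 ± 139 in NormMg-HFD and 1925 ± 1000 in LowMg-HFD mice. Pde1a encodes a phosphodiesterase of cAMP and cGMP, with 20.3 ± 2.22, 18.6 ± 3.58, 6.34 ± 1.54 and 14.4 ± 5.69 in the same order. Within groups, the deviations of these 5 genes from their group means correlated with those of Agt at 0.76 to 0.91. All points share the libraries, and these correlations are descriptions.

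Renin (Ren1, chromosome 1, 133350510 to 133360325), which cleaves angiotensinogen, was at the edge of detection. Its FPKM was 0.11, 0.96, 0.23 and 0.33 in NormMg-LFD replicates 2 to 5 and 0.11, 0, 0, 1.92 and 0.22 in LowMg-LFD replicates 1 to 5. On the high-fat diets it was 0, 0.11, 0.21, 0.11 and 0.11 with normal and 0, 0, 0.22, 1.19 and 0.11 with low Mg2+. The 3 highest values belong to the 3 libraries with high pancreas, epididymis or testis genes, and the other 16 mice lay between 0 and 0.33, with 5 of them listed at 0.

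The lowest Ren1 value above 0 was 0.11, so that differences among those 16 mice are steps close to the lowest level the table shows, and no fold or test is given. The part of the other tissues in the high values was not tested. Without the 3 libraries the group means were 0.223 ± 0.110 (n = 3) in NormMg-LFD, 0.0825 ± 0.105 (n = 4) in LowMg-LFD, 0.108 ± 0.0743 (n = 5) in NormMg-HFD and 0.0825 ± 0.105 (n = 4) in LowMg-HFD mice.

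Ace (chromosome 11, 105967945 to 105989964), the converting enzyme, which lies on endothelial cells in most tissues, was expressed at a moderate level in all mice. Its FPKM was 36.1, 47.33, 68.4 and 34.91 in NormMg-LFD replicates 2 to 5 and 22.83, 46.53, 30.46, 49.86 and 32.73 in LowMg-LFD replicates 1 to 5. It was 30.57, 38.43, 26.6, 32.18 and 26.7 in NormMg-HFD and 30.32, 27.79, 33.48, 68.33 and 29.47 in LowMg-HFD replicates 1 to 5. All groups overlapped, and LowMg-HFD replicate 4, the library with the highest testis genes, stood far above its group.

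Mean Ace FPKM was 46.7 ± 15.5 in NormMg-LFD, 37.9 ± 17.1 in LowMg-HFD, 36.5 ± 11.4 in LowMg-LFD and 30.9 ± 4.86 in NormMg-HFD mice, and no step between neighbours in this order was larger than the SD. On normal Mg2+ the high-fat diet gave a log2 difference of -0.54 (SE 0.26), with 4 of 5 NormMg-HFD mice below every NormMg-LFD mouse. This did not pass the adjusted threshold in limma (adjusted p = 0.108), which 37.4% of tested genes passed in this comparison. The unadjusted limma p was 0.0493, a level that 45.8% of tested genes reached, and the exact permutation p was 0.0476. Relative to the 10 adipocyte markers the difference was -0.12 (limma adjusted p = 0.75), and without the 3 libraries it was -0.52 (adjusted p = 0.0759). The 3 do not include NormMg-LFD replicate 4, with the highest Ace value and a testis mean of 5.47, or replicate 5, with 6.62. Leaving out 1 mouse at a time gave -0.66 to -0.34. The difference passed in limma with median centring or quantile normalization (both adjusted p = 0.0359). It also passed with the compared groups alone (0.0378) and without LowMg-HFD replicate 4 (0.0459).

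At low Mg2+ the high-fat and low-fat diets differed in Ace by 0.02 (SE 0.24, 95% confidence interval -0.49 to 0.53, limma adjusted p = 0.967, with 15.9% of tested genes called). Low Mg2+ on the low-fat diet gave -0.35 (SE 0.26, 95% confidence interval -0.89 to 0.19, limma adjusted p = 0.835). Between LowMg-HFD and NormMg-HFD mice the difference, described with no test, was 0.21 (SE 0.24), and it was -0.02 without the 3 libraries. The LowMg-HFD mean was then 30.3 ± 2.39 (n = 4), next to 30.9 ± 4.86 (n = 5) in NormMg-HFD mice.

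Set against 8 endothelial genes in each mouse, Ace stood at 0.09 ± 0.34 in NormMg-LFD, -0.24 ± 0.42 in LowMg-LFD, -0.33 ± 0.12 in NormMg-HFD and -0.37 ± 0.58 in LowMg-HFD mice on the log2 scale. The 2 highest Ace values were 68.4 in NormMg-LFD replicate 4, with a testis mean of 5.47, and 68.33 in LowMg-HFD replicate 4, with 8.85. NormMg-LFD replicate 5, with a testis mean of 6.62, had 34.91, and LowMg-LFD replicate 1, with 4.77, had 22.83. The part of testis tissue in the Ace values was not tested. The genes that followed Ace most closely were Mllt10 (Pearson r 0.90), Phf1 (0.89), Cnbd2 (0.89), Errfi1 (0.88) and Gstm7 (0.87). Without the 3 libraries these correlations were 0.78 to 0.86.

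**Figure D3:**
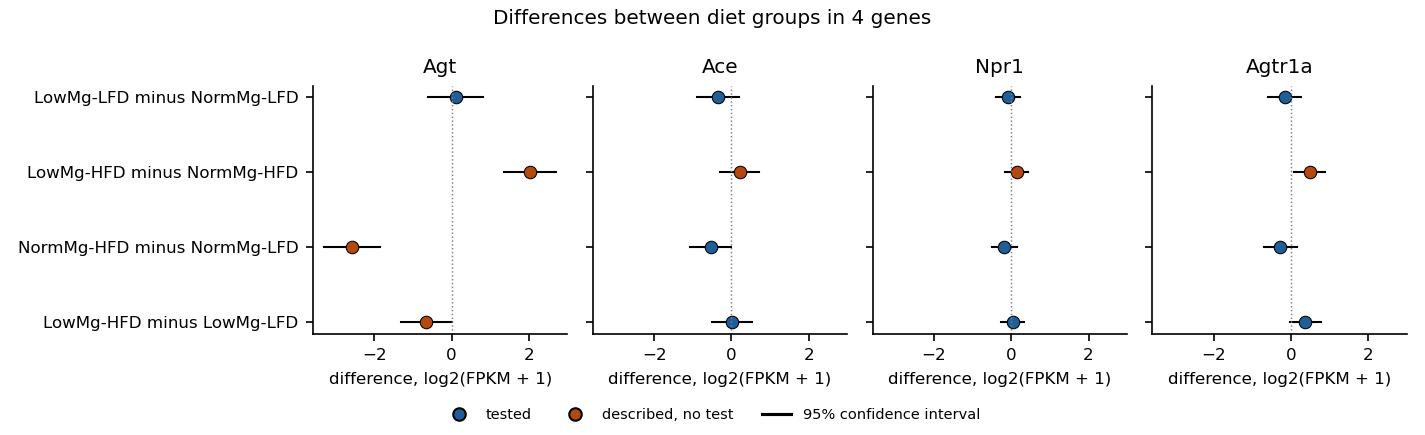
Difference between diet groups on the log2(FPKM + 1) scale (horizontal axes) for Agt, Ace, Npr1 and Agtr1a in 4 comparisons (vertical axis); points are limma estimates, bars are 95% confidence intervals, and colour marks whether the difference was tested or only described. Agt stands at 2.03 for LowMg-HFD minus NormMg-HFD and at -2.58 for NormMg-HFD minus NormMg-LFD, while every estimate of the other genes lies between -0.54 and 0.48.

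Agtr1a (chromosome 13, 30336441 to 30382867) encodes the AT1a receptor, the main receptor of angiotensin II in mice. Its FPKM was 8.02, 6.18, 6.15 and 6.89 in NormMg-LFD replicates 2 to 5, and 5.86, 8.13, 4.69, 7.32 and 4.27 in LowMg-LFD replicates 1 to 5. It was 3.42, 8.61, 4.46, 6.22 and 5.45 in NormMg-HFD and 8.05, 9.26, 8.62, 6.78 and 7.11 in LowMg-HFD replicates 1 to 5. The LowMg-HFD mice were the highest on average, but the groups overlapped: NormMg-HFD replicate 2, at 8.61, exceeded 3 of the 5 LowMg-HFD mice.

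Group means of Agtr1a were 7.96 ± 1.03 in LowMg-HFD, 6.81 ± 0.88 in NormMg-LFD, 6.05 ± 1.66 in LowMg-LFD and 5.63 ± 1.97 in NormMg-HFD mice, and in this order only the step from LowMg-HFD to NormMg-LFD was larger than the SD, with overlapping values. The gene fell just short of the filter, with a LowMg-HFD mean of 7.964 and 3 mice over 8, and was therefore read from a fit to all 24237 genes. There the difference between LowMg-HFD and NormMg-HFD mice was 0.48 on the log2 scale (SE 0.19), with no test. Set against the adipocyte markers in each mouse, Agtr1a stood at -6.49 ± 0.40 in NormMg-HFD and -6.53 ± 0.17 in LowMg-HFD mice, so that the difference between these groups was close to 0 and of the opposite sign. Against 7 stromal progenitor genes, whose mean was 5.996 ± 0.11 in NormMg-HFD and 5.58 ± 0.19 in LowMg-HFD mice, it stood at -3.32 ± 0.43 and -2.42 ± 0.19. No difference that was tested in limma passed the threshold. Low Mg2+ on the low-fat diet gave -0.17 (SE 0.20, adjusted p = 0.931), the high-fat diet gave -0.28 (SE 0.20, adjusted p = 0.423) on normal Mg2+ and 0.37 (SE 0.19, adjusted p = 0.382) on low Mg2+. In that fit 0.00413%, 15.1% and 3.96% of genes were called in these comparisons. Reads of 50 bases may not separate Agtr1a from its near-identical paralogue Agtr1b, which had a mean FPKM of at most 0.0275 in any group, so the values of both are uncertain.

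Agtr2 (chromosome X, 21484544 to 21489164), which encodes the AT2 receptor, was listed at 0 in 18 of 19 mice and at 0.11 in NormMg-LFD replicate 4. Agtr1a was thus the only gene of the AT1 and AT2 receptors with an FPKM above 0.11 in any mouse. Mas1, the receptor of angiotensin 1-7, was also low: its FPKM was 3.55 in LowMg-HFD replicate 4, the library with the highest testis genes, and at most 0.58 in every other mouse.

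Npr1 (chromosome 3, 90450591 to 90465866), the cGMP-forming receptor of the atrial and brain natriuretic peptides, was, of Agt, Ace, Agtr1a and Npr1, the gene whose group means on the log2 scale lay closest together. Its FPKM was 26.04, 37.11, 46.45 and 30.26 in NormMg-LFD replicates 2 to 5 and 24.34, 34.08, 32.02, 38.26 and 34.28 in LowMg-LFD replicates 1 to 5. On the high-fat diets it was 31.58, 28.84, 35.16, 27.04 and 28.5 with normal and 34.95, 28.63, 40.62, 31.9 and 30.9 with low Mg2+. The ranges of all 4 groups overlapped.

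Group means of Npr1 ran from 30.2 ± 3.21 in NormMg-HFD to 35.0 ± 8.91 in NormMg-LFD mice, with LowMg-LFD (32.6 ± 5.14) and LowMg-HFD mice (33.4 ± 4.63) between them, and no step exceeded the SD. Low Mg2+ on the low-fat diet gave a log2 difference of -0.08 (95% confidence interval -0.39 to 0.23, limma adjusted p = 0.945). The high-fat diet gave -0.18 (-0.49 to 0.14, limma adjusted p = 0.378) on normal Mg2+ and 0.04 (-0.26 to 0.34, limma adjusted p = 0.883) on low Mg2+. Between LowMg-HFD and NormMg-HFD mice the difference was 0.14 (SE 0.14), with no test. Relative to the adipocyte markers the difference between the high-fat groups was -0.38, and that between the fat levels at normal Mg2+ was 0.25. This centring shifted the median of all tested genes by -0.51 and 0.43 in these comparisons, so the change of sign is not particular to Npr1. Phc2 (Pearson r 0.84), Ddx5 (0.82), Zswim8 (0.81), Unk (0.80) and Efna1 (0.80) followed Npr1 most closely over the 19 mice.

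Within groups, mice with more Agt also tended to have more Ace and Npr1: the deviations from the group means correlated at 0.69 between Agt and Ace, 0.61 between Agt and Npr1 and 0.52 between Ace and Npr1. With Agtr1a the deviations of Agt correlated at 0.14. These are descriptions over 19 mice whose values share a library, and leaving out the 3 libraries gave 0.67, 0.59 and 0.64 for the first 3 pairs.

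Npr3, the clearance receptor, was by FPKM the more abundant natriuretic receptor. Its FPKM was 194 ± 7.14 in NormMg-LFD, 152 ± 55.0 in LowMg-LFD, 204 ± 24.5 in NormMg-HFD and 244 ± 30.3 in LowMg-HFD mice, so that the ratio of Npr3 to Npr1 averaged 5.85 ± 1.62, 4.75 ± 1.78, 6.86 ± 1.41 and 7.43 ± 1.52 in the same order. At low Mg2+ Npr3 rose with the high-fat diet, by 0.75 on the log2 scale (SE 0.17, limma adjusted p = 0.00687). At normal Mg2+ the difference was 0.06 (SE 0.18, adjusted p = 0.818), and the difference between these differences, 0.68, had a limma adjusted p of 0.134. Npr2, the receptor of C-type natriuretic peptide, fell with the high-fat diet at normal Mg2+, by 0.63 (SE 0.15, limma adjusted p = 0.00306), from 35.9 ± 4.94 to 22.9 ± 3.98, but relative to the adipocyte markers the difference was -0.21 (limma adjusted p = 0.24).

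The genes of the atrial and C-type natriuretic peptides were at or near 0, with a mean FPKM of at most 0.122 for Nppa and 0.102 for Nppc in any group. That of the brain peptide, Nppb, was not analysed here. Furin and Ide, which process and degrade such peptides, passed no threshold in limma, at 24.8 to 29.4 and 10.3 to 13.0 mean FPKM. Ide has a second row in the table, so that its reads may be split. Corin, the protease that activates the atrial peptide, was highest in LowMg-HFD replicate 4, at 2.71.

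Beside the members, 51 genes of the same pathways were listed, of which 32 passed the filter. These lists were chosen with earlier results of these data known, so their counts beside those of all genes are descriptions. Between LowMg-HFD and NormMg-HFD mice 2 were higher and 10 lower past the adjusted threshold, beside 5.58% higher and 12.9% lower of all genes tested. The 10 include Cma1 and Mcpt4, which passed the filter only through NormMg-HFD, the group in which they were highest. The median log2 difference of the 32 genes was -0.18, and -0.04 over all genes. For low Mg2+ on the low-fat diet none was called, with a median of -0.06 as for all genes. For the high-fat diet 12 were higher and 9 lower on normal Mg2+ (24.6% and 12.8% of all genes), with a median of 0.21 beside 0.07, and 7 higher and 2 lower on low Mg2+ (12.4% and 3.51%), with a median of 0.06 beside 0.10. The 9 include Rgs4, which passed the filter only through NormMg-LFD, where it was highest. The comparison of Mg2+ levels on the high-fat diet and that of fat levels at normal Mg2+ share the NormMg-HFD mice. Whether the Mg2+ difference itself depended on fat was tested as an interaction in limma, which 1.25% of tested genes passed, and 2 of the pathway genes, Prcp and Arap1.

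Between LowMg-HFD and NormMg-HFD mice 10 of the 12 calls were kept under each of 30 alternative settings, leaving out each mouse in turn included. For the other 2, Cma1 and Mcpt4, the filter was passed under 26 settings, which kept the calls. The remaining settings leave out one of NormMg-HFD replicates 1 to 4, and without a filter the call was then lost in 2 of 4 cases for Cma1 and in 3 of 4 for Mcpt4. Between fat levels 17 of 21 calls were kept under each setting on normal and 4 of 9 on low Mg2+, and neither interaction call was kept throughout: that of Prcp was lost in 18 of 29 settings and that of Arap1 in 21 of 29. Centring each mouse on the adipocyte markers, which is not among the 30 settings, kept 10 of the 12 calls, and the 2 genes that were higher, Pde3b and Hsd11b1, were then not called. It kept 15 of the 21 calls between fat levels on normal and 5 of the 9 on low Mg2+. The 4 not kept on low Mg2+ had differences of 0.40 to 0.60, beside 0.38 to 0.58 before centring. Both interaction calls were kept, at -1.26 for Prcp (limma adjusted p = 0.0175) and -1.51 for Arap1 (adjusted p = 0.0176).

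**Figure D4:**
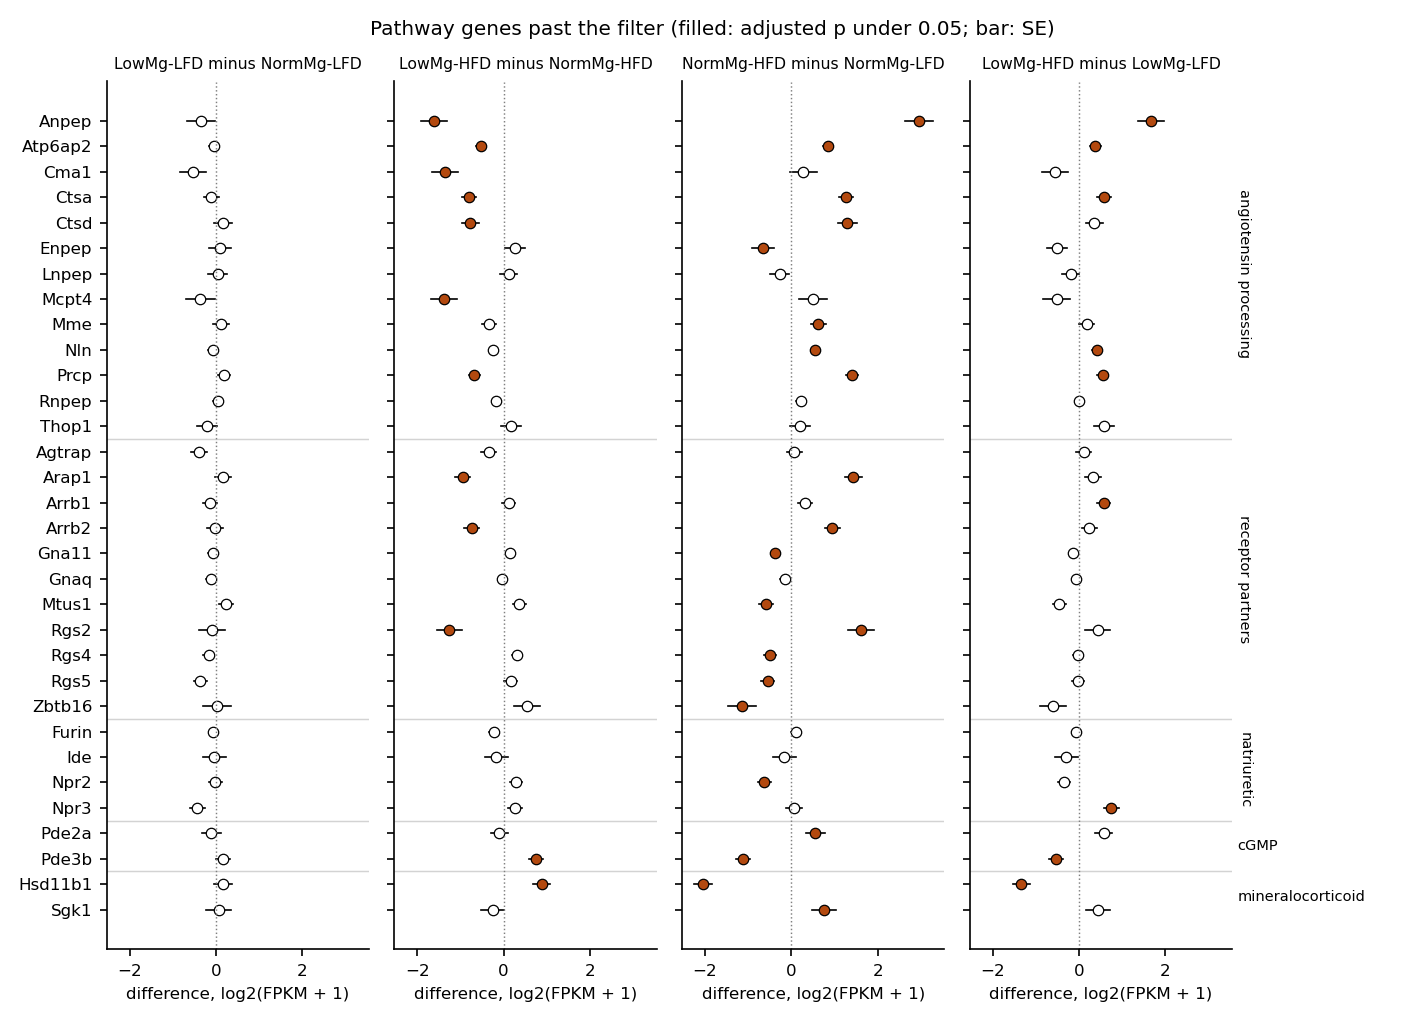
Difference between diet groups on the log2(FPKM + 1) scale (horizontal axes) for the 32 pathway genes past the filter (rows, grouped by role) in 4 comparisons; filled points have a limma adjusted p under 0.05 and bars are SE. Between LowMg-HFD and NormMg-HFD mice 10 genes are lower and 2, Pde3b and Hsd11b1, higher (neither was called relative to the adipocyte markers), and between the low-fat groups no point is filled.

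Of the genes that process angiotensins, 13 of 18 were tested, and in LowMg-HFD mice 7 were lower, and none higher, than in NormMg-HFD mice (12.9% and 5.58% of all genes tested). Of the 7, Cma1 and Mcpt4 were tested only because of their NormMg-HFD level. Anpep, the aminopeptidase that trims angiotensin III, fell from 98.98 ± 23.7 to 35.8 ± 21.2 FPKM, by 1.61 on the log2 scale (SE 0.30, limma adjusted p = 0.00255). The carboxypeptidases Prcp and Ctsa, which act on angiotensin II and angiotensin I, fell by 0.68 and 0.80. Cathepsin D (Ctsd), a lysosomal relative of renin, fell from 1818 ± 291 to 1086 ± 299, by 0.77, and the renin receptor gene Atp6ap2 by 0.52. All 5 were higher in NormMg-HFD than in NormMg-LFD mice, by 0.85 for Atp6ap2 to 2.95 for Anpep, as were 24.6% of all genes tested. Both comparisons use the same NormMg-HFD mice, so the rise and the fall are not independent. Several of these are also abundant in macrophages, whose 8 markers all fell in the same comparison; their part in these values was not tested.

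The chymases Cma1 and Mcpt4, mast cell proteases that can form or break down angiotensin II, fell from 12.1 ± 5.56 to 3.91 ± 1.83 and from 14.4 ± 5.52 to 4.82 ± 2.04, by 1.36 and 1.38 (limma adjusted p = 0.00453 and 0.0058). Both passed the filter through NormMg-HFD alone, the group in which they were highest, so the filter itself favours a fall in this comparison. In the fit to all 24237 genes their adjusted p was 0.0156 and 0.0207, and with one of NormMg-HFD replicates 1 to 4 left out as well it was 0.0299 to 0.057 for Cma1 and 0.0449 to 0.0658 for Mcpt4, where Cma1 was not called without replicate 1 or 3 and Mcpt4 not without replicate 1, 2 or 3. A list of 5 mast cell markers had a mean of 1.90 ± 0.26 in NormMg-HFD and 1.53 ± 0.24 in LowMg-HFD mice, and its part in these falls was not tested. Enpep, which turns angiotensin II into angiotensin III, was lower on the high-fat diet at normal Mg2+ (-0.66, limma adjusted p = 0.0448), where Mme and Nln, peptidases that make shorter angiotensins, were higher by 0.63 and 0.56. Nln was also higher with high fat at low Mg2+, by 0.41, though not past the threshold relative to the adipocyte markers (0.43, limma adjusted p = 0.0733), with median centring (adjusted p = 0.0764), with quantile normalization (0.0816) or in a fit of the compared groups alone (0.06). The call of Enpep was lost in 13 of 30 alternative settings, and relative to the adipocyte markers (-0.23, adjusted p = 0.392), and that of Mme without NormMg-LFD replicate 3, where its adjusted p was 0.0517. Lnpep, Rnpep and Thop1 passed in no comparison, and Thop1 reached 22.88 in LowMg-HFD replicate 4, against 11.53 or less in every other mouse. Klk1, a tissue kallikrein, was at 17.16 in NormMg-LFD replicate 3, the library with the pancreas genes, and at 1.49 or less in every other mouse.

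Of 11 partners of the AT1 and AT2 receptors, all were tested, and 3 were lower, and none higher, in LowMg-HFD mice than on the NormMg-HFD (12.9% and 5.58% of all genes tested). Arap1, a form of which binds the AT1 receptor, fell from 52.7 ± 10.4 to 26.8 ± 5.72, by 0.95 (SE 0.18, limma adjusted p = 0.00267). Rgs2, which shortens Gq signalling, fell from 34.0 ± 3.28 to 15.0 ± 8.21, by 1.26, and the arrestin Arrb2 by 0.74. On normal Mg2+ these 3 were higher with high fat, by 1.44, 1.61 and 0.95, in a comparison that uses the same NormMg-HFD mice. The 8 macrophage markers all moved in the same directions, with a median of -1.21 between the high-fat groups and 1.94 between fat levels on normal Mg2+, and their part in these 3 values was not tested. On normal Mg2+, where 12.8% of all genes tested were lower and 24.6% higher with high fat, 5 partners were lower: Zbtb16 (-1.14), Mtus1 (-0.58), which bind the AT2 receptor, Rgs5 (-0.54), Rgs4 (-0.49) and the G protein Gna11 (-0.37). Relative to the mean of the adipocyte markers, which was itself lowest in NormMg-HFD mice, Mtus1 (-0.15), Rgs5 (-0.12), Rgs4 (-0.07) and Gna11 (0.06, of the opposite sign) were not called. This centring raised the median of all tested genes by 0.43 in this comparison, so the smaller falls are not particular to these genes. Rgs4 passed the filter through NormMg-LFD alone, the group in which it was highest, and its adjusted p in the fit to all genes was 0.00561. Arrb1 was higher with high fat at low Mg2+ (0.57, limma adjusted p = 0.0138), but not when the compared groups alone were fitted (adjusted p = 0.0571). Agtrap, which drives the AT1 receptor into the cell, and Gnaq passed in no comparison.

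Of 8 genes of the cGMP arm, 2 were tested. Pde3b, the adipocyte phosphodiesterase that insulin activates and cGMP inhibits, was at 82.6 ± 8.20 in NormMg-LFD, 94.4 ± 21.6 in LowMg-LFD, 37.6 ± 5.70 in NormMg-HFD and 64.1 ± 13.0 in LowMg-HFD mice. Between the high-fat groups it was higher with low Mg2+ by 0.75 (SE 0.16, limma adjusted p = 0.00437), and relative to the adipocyte markers by 0.23 (adjusted p = 0.155), which did not pass. It fell with high fat by 1.12 on normal and 0.54 on low Mg2+. Pde2a, which cGMP stimulates, was higher with high fat on normal Mg2+ by 0.56 (limma adjusted p = 0.0485), and has a second row in the table, so that its reads may be split. Its call was lost in 19 of 30 alternative settings, and that of the Pde3b fall on low Mg2+ in 10 of 30. Without the 3 libraries with other tissue the Pde2a difference was 0.46 (limma adjusted p = 0.125) and the Pde3b difference -0.39 (adjusted p = 0.136). The cGMP-dependent kinase Prkg1 was at a mean of 1.51 or less in each group, with its highest value, 3.68, in LowMg-HFD replicate 4.

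In the mineralocorticoid list 2 of 5 genes were tested. Hsd11b1, which regenerates active glucocorticoid in fat, was at 112 ± 33.0 in NormMg-LFD, 125 ± 35.6 in LowMg-LFD, 25.8 ± 4.97 in NormMg-HFD and 47.9 ± 4.34 in LowMg-HFD mice, an order like that of Agt. Between the high-fat groups it was higher with low Mg2+ by 0.88 (SE 0.19, limma adjusted p = 0.00485), and relative to the adipocyte markers by 0.37 (adjusted p = 0.113), which did not pass. It fell with high fat by 2.04 on normal and 1.33 on low Mg2+. Sgk1, a kinase that the mineralocorticoid receptor induces, was higher with high fat on normal Mg2+ by 0.75 (limma adjusted p = 0.0445), a call that was lost in 14 of 30 alternative settings. Without the 3 libraries with other tissue its difference was 0.79 (limma adjusted p = 0.0614). The receptor itself, Nr3c2, was at a mean FPKM of 2.96 or less in each group.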

How the data were processed

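RNA of eWAT from 19 male mice was sequenced by the authors with 50 bp single-end reads. Reads were aligned to GRCm38/mm10, and the deposited values are FPKM per gene, obtained by the authors with RSEM 1.2.31; the submitters' processing notes also name HISAT and Bowtie2. Total read counts (12986441 to 13027028 per mouse) and the mapped share in percent (86.12% to 90.41%) are further deposited values. FPKM carries no read counts, so no count test or counting interval was used, and the depth behind a single value is unknown.

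Of 24250 rows, 12 hold no gene and 1 has a cell that is not a number, which left 24237 genes. The 6 members and the gene lists were chosen with earlier results of these data known. Values were taken as log2(FPKM + 1). The filter asked of a gene that its group mean exceed 8 FPKM in some group and that at least 4 mice there do so too. The 8336 genes left were modelled by diet group with limma 3.58.1 under R 4.3.3, allowing an intensity trend. Two-sided P values were corrected after Benjamini and Hochberg across these genes, and 0.05 was the threshold. Agtr1a was read from the same fit over all 24237 genes. Exact permutation tests used scipy 1.17.1. The members' differences that involve the contrast they were chosen by were not tested. The fit was tested on simulated data. P values measure the spread between mice, which the labels number as separate animals.

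Genes named are the members, the pathway genes past the threshold in any comparison, up to 4 further genes of each list by mean FPKM, genes described for a single library, chosen after their values were seen, and the 5 genes whose log2 values had the highest Pearson r with each filtered member. Of 131 list genes 127 were found. Marker lists were read as mean log2(FPKM + 1); the list of mural genes, with group means of 3.76 to 4.15, is not set beside a result. Alternatives were quantile normalization, centring on the median or on adipocyte genes, adding 0.1 in place of 1, filtering at FPKM 1 or not at all, fitting the compared groups alone, dropping the trend, a replicate block, and omitting each mouse. A filter of log2(FPKM + 1) over 3, leaving out the 3 libraries with other tissue or the 3 highest in testis genes, Ace relative to endothelial genes and pathway calls relative to adipocyte genes were added after the data were seen. Plots were made in Python 3.11.15 with matplotlib 3.10.9.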

Additional observations from a re-analysis of the deposited data

Results flagged for a closer look

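In 3 of 20 sets of one gene in one group, a mouse stood apart from its group by Dixon's criterion, which chance meets in about 1 in 20. Ace was at 68.33 FPKM in LowMg-HFD replicate 4. Ren1 was at 1.92 in LowMg-LFD replicate 4 and at 1.19 in LowMg-HFD replicate 4. These are the libraries with the highest epididymis and the highest testis genes, and the part of those tissues in the values was not tested.

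For 2 pathway genes the difference between LowMg and NormMg mice itself differed between the high-fat and the low-fat diet, by an interaction term in limma. For Prcp the high-fat minus the low-fat difference was -0.86 on the log2 scale (adjusted p = 0.0447), with 49.1 ± 5.09 FPKM in NormMg-HFD and 30.5 ± 5.21 in LowMg-HFD mice against 18.0 ± 3.28 and 20.4 ± 2.60 on the low-fat diet. For Arap1 it was -1.11 (adjusted p = 0.0489). The call was lost in 18 of 29 alternative settings for Prcp and in 21 of 29 for Arap1, with adjusted p up to 0.118 and 0.136, and the direction was kept in every one. Without the 3 libraries with other tissue the difference was -0.65 for Prcp (limma adjusted p = 0.118) and -0.86 for Arap1 (adjusted p = 0.136).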

How the results depend on the processing

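The depth behind single FPKM values is not known, which limits genes near 0 such as Ren1 and Agtr2. Agt was chosen by its difference between the high-fat groups, so that its sign there says nothing of stability; leaving out 1 mouse at a time gave 1.89 to 2.29. Relative to the adipocyte genes it was 1.52, and the Ace and Npr1 differences between these groups were -0.30 and -0.38, with 0.16 and -0.19 for their high-fat minus low-fat Mg2+ difference; the centring itself shifts all genes by 0.51 there.

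The Ace difference between fat levels on normal Mg2+ passed 0.05 with median centring (-0.64, adjusted p = 0.0359), quantile normalization (-0.68, adjusted p = 0.0359), a fit of the compared groups only (-0.54, adjusted p = 0.0378), the exact permutation test (-0.54, unadjusted) and without LowMg-HFD replicate 4 (adjusted p = 0.0459). Leaving out 1 mouse gave -0.66 to -0.34.

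Differences near 0 changed sign in places. The Ace difference between fat levels on low Mg2+ became -0.09 with median centring and without the 3 libraries, -0.08 with quantile normalization and -0.21 without the 3 mice highest in testis genes, and ran from -0.21 to 0.14 with 1 mouse left out. For Npr1 the same comparison gave -0.07 and -0.08 with the 2 normalizations and -0.06 to 0.10 with 1 mouse left out. Its fat difference on normal Mg2+ was 0.25 relative to adipocyte genes. Its Mg2+ difference on the low-fat diet was 0.05 without the 3 mice highest in testis genes and -0.21 to 0.06 with 1 mouse left out. For Agt that difference was -0.00 relative to adipocyte genes and -0.09 to 0.34 with 1 mouse left out.

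With 1 mouse left out, between 921 (without NormMg-HFD replicate 3) and 1644 genes were called between the high-fat groups (1542 with all mice), and between 800 (without LowMg-HFD replicate 2) and 1468 between fat levels on low Mg2+ (1329 with all mice), where the compared groups alone gave 725. Without a filter 1 gene was called for Mg2+ on the low-fat diet. The count of genes whose Mg2+ difference depends on fat, 104, was unstable: 24 with a pseudocount of 0.1, 48 with the FPKM 1 filter, 2 without a filter, 245 with median centring, 347 with quantile normalization, 67 without the trend, 0 without either set of 3 mice, and 0 to 482 with 1 mouse left out. Median centring changed the share of calls that were higher from 30.2% to 43.3% between the high-fat groups, from 65.8% to 50.1% between fat levels on normal Mg2+ and from 78% to 52.8% on low Mg2+; quantile normalization gave 47.2%, 46.9% and 50.9%.

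Replicate numbers do not pair the mice: of 27 same-numbered pairs, the deviations of 5 correlated at over 0.1 (range -0.18 to 0.34). With a replicate block the Agt difference between the high-fat groups was 2.03, 1466 genes were called there, and 0 genes had a Mg2+ difference that depends on fat. Of the 44 pathway calls, 33 were kept under each of the alternatives in which the gene was tested, other than centring on adipocyte genes. These were 26 for Cma1 and Mcpt4, which fall below the filter without NormMg-HFD replicate 1, 2, 3 or 4, and 29 or 30 for the others. The 33 count both, although without a filter the call was lost on leaving out one of these mice in 2 of 4 cases for Cma1 and in 3 of 4 for Mcpt4. Centring on adipocyte genes kept 32 of the 44, and Gna11 changed sign between fat levels on normal Mg2+ (0.06, adjusted p = 0.709). The cause of the losses was not tested.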
